A study of Sus scrofa with 6 samples.

Results

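Transcripts of 10 brakes on mitogen-activated protein kinase (MAPK) signaling were followed in the ventricular myocardium of sham and DAC minipigs: the dual-specificity phosphatases DUSP1, DUSP4, DUSP5, DUSP6, DUSP8 and DUSP10, the Sprouty genes SPRY1, SPRY2 and SPRY4, and the Sprouty-related gene SPRED1. They were taken by gene name from the 13288 genes listed in the deposited table, and all 10 were found. The samples were hearts of Tibetan minipigs, which the study's methods give as male animals of 25 to 30 kg. Of the sequenced animals, 3 had sham surgery, a thoracotomy without constriction, and 3 had descending aortic constriction (DAC), in which sutures narrowed the descending aorta to load the left ventricle with pressure. Tissue was taken 12 weeks after surgery. The methods describe surgical anesthesia and penicillin with the constriction procedure and do not state them separately for the sham group. The study operated on 5 minipigs per group and excluded 1 of each group for unstable heart rates during echocardiography. An age is not given in the sources used here. Samples are named here as Sham 1 to Sham 3 and DAC 4 to DAC 6, each from 1 minipig.

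MAPK cascades pass signals from growth factor receptors, G-protein-coupled receptors and mechanical stress to the kinases ERK, JNK and p38. The route through RAS, RAF and MEK leads to ERK. In heart muscle, ERK, JNK and p38 take part in hypertrophic growth and in fibroblast activation. The phosphatases named DUSP remove phosphate from both the threonine and the tyrosine of the activation loop of these kinases. Sprouty and SPRED proteins act further upstream, between the receptor and RAF. Many of these brakes are themselves transcribed in response to MAPK activity, so their mRNA is often read together with that of the pathway's other targets.

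Values are FPKM, fragments scaled by transcript length and by the mapped fragments of a sample, as the authors deposited them. The sum of FPKM per sample ranged from 281377 to 308771, and the sequencing depth is unknown. The mitochondrially encoded genes held 24.01% to 25.3% of the sum in the sham samples, 27.1% to 27.2% in DAC 4 and DAC 6 and 32.8% in DAC 5, which stood apart. Cardiomyocyte markers were abundant in both groups, with MYL2, the ventricular myosin regulatory light chain, at a mean of 4525 FPKM in the sham group and 4688 FPKM in the DAC group. Differences are given as DAC minus sham in mean log2(FPKM + 1), which understates changes of genes near or under 1 FPKM. The 11029 genes that reached 1 FPKM in 3 or more samples were tested together by limma. A gene was called at an unadjusted P under 0.05, the threshold that the study applied. Fewer cells of a type and less RNA per cell cannot be told apart in such bulk tissue.

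Of the 10 brake genes, 9 passed the filter and 1, DUSP5, did not. Among the 9, DUSP4 was called higher in the DAC group and none was called lower. Over all tested genes, 8.51% were called, 3.25% higher (358 genes) and 5.27% lower (581 genes), a split that became 502 higher and 408 lower with each sample rescaled to its sum without mitochondrial transcripts. After Benjamini-Hochberg adjustment no gene of the table passed 0.05 in limma, against 939 genes with an unadjusted P under 0.05. The difference was positive for 7 of the 9 brakes and negative for DUSP6 and DUSP8. Over all tested genes it was positive for 5145 and negative for 5884. The median difference of the brakes was 0.14, against -0.016 over all tested genes, and it ranged from 0.016 to 0.18 without 1 sample. The summed FPKM of the 10 genes was 114 ± 14.8 (SD, n = 3) in the sham group and 116 ± 20.5 (SD, n = 3) in the DAC group, with an exact two-sided permutation P of 0.9. For the 6 phosphatases alone the sums were 92.7 ± 13.3 and 92.9 ± 17.4 FPKM, and for the 4 Sprouty and SPRED genes they were 21.1 ± 1.64 and 23.6 ± 3.82 FPKM (SD, n = 3 each).

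**Figure D1:**
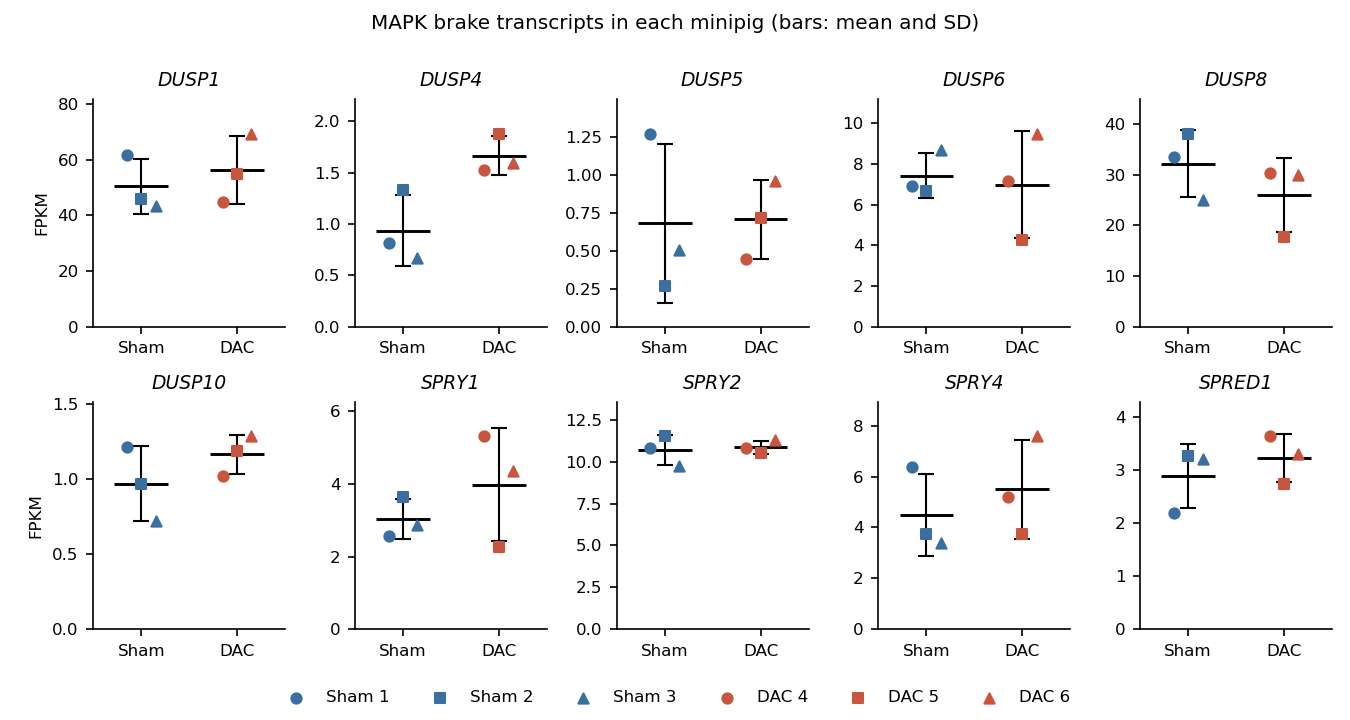
FPKM of each of the 10 brake genes (vertical axes from 0, a separate scale for each gene) in the 3 sham and 3 DAC minipigs, with a point for each minipig and black bars for the mean and SD of the group. The DUSP4 points of the DAC group, from 1.53 to 1.88 FPKM, all lie above the sham points, and the groups overlap for the other 9 genes.

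Because FPKM is scaled by length, the brakes can be ordered by level. DUSP1 was the most abundant, with a mean over the 6 samples of 53.5 FPKM, followed by DUSP8 with 29.1 FPKM and SPRY2 with 10.8 FPKM. The ranges of these genes over the samples did not overlap with each other, nor did that of SPRY2 with the range of DUSP6, the next in order at 7.20 FPKM. DUSP6, SPRY4 (range 3.39 to 7.58 FPKM), SPRY1 (mean 3.50 FPKM) and SPRED1 (mean 3.06 FPKM) formed a run in which each range overlapped with the next. DUSP6 was nevertheless above SPRY4 in 6 of 6 samples, and SPRY4 was above SPRY1 in 5 of 6. DUSP4 (range 0.664 to 1.88 FPKM), DUSP10 (mean 1.07 FPKM) and DUSP5 (mean 0.693 FPKM) lay below, again with overlapping neighbors. DUSP1 exceeded 95.1% of the listed genes in mean FPKM, while DUSP5 exceeded 11.8%. DUSP1 alone made up 49.3% to 68.2% of the summed FPKM of the 6 phosphatases in a sample, and DUSP8 made up 21.9% to 40.8%.

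The inducible nuclear phosphatases were DUSP1, DUSP4 and DUSP5. DUSP4 (ENSSSCG00000015850, chromosome 15 from 55490468 to 55509459 on susScr11, plus strand), which acts on ERK and JNK, was at 0.810, 1.33 and 0.664 FPKM in Sham 1, Sham 2 and Sham 3. In DAC 4, DAC 5 and DAC 6 it was at 1.53, 1.88 and 1.59 FPKM. All DAC samples thus lay above all sham samples, at a mean of 1.67 ± 0.188 FPKM against 0.934 ± 0.350 FPKM (SD, n = 3 each), a ratio of 1.78. The difference on the log2(FPKM + 1) scale was 0.48 (standard error 0.15, 95% interval 0.11 to 0.84), with an unadjusted P of 0.0177 and an adjusted P of 0.522 from limma. The groups were separate with DAC higher in 6.01% of the tested genes and with DAC lower in 8.91%, and the exact two-sided permutation P was 0.1, the smallest that 3 against 3 allow. DUSP4 is a low transcript that passed the filter with the 3 DAC samples and 1 sham sample. With a pseudocount of 0.1 its difference was 0.82, and it was no longer called without Sham 1, without Sham 3 or without DAC 5, with unadjusted P of 0.0544, 0.0629 and 0.0558 from limma.

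DUSP1 (ENSSSCG00000016991, chromosome 16 from 51458020 to 51461086, plus strand), which acts on p38, JNK and ERK, was at 62.0, 46.0 and 43.6 FPKM in the sham samples. In DAC 4, DAC 5 and DAC 6 it was at 44.9, 54.9 and 69.5 FPKM. Both groups therefore held a high sample, Sham 1 and DAC 6, and low ones, and they overlapped over most of their range. The difference was 0.15 (standard error 0.20, 95% interval -0.31 to 0.62, unadjusted P = 0.468 and adjusted P = 0.849 from limma), and it was -0.0075 without DAC 6. Expressed as a fold on the same scale, the interval ran from 0.804 to 1.53.

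DUSP5 (ENSSSCG00000040815, chromosome 14 from 120906343 to 120919395, plus strand), which is selective for ERK, was at 1.27, 0.269 and 0.504 FPKM in the sham samples. It was at 0.443, 0.711 and 0.961 FPKM in the DAC samples. Only Sham 1 reached 1 FPKM, so DUSP5 entered no test across genes. Its group means, 0.681 ± 0.523 and 0.705 ± 0.259 FPKM (SD, n = 3 each), lay closer together than the samples within either group.

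DUSP6 (ENSSSCG00000037910, chromosome 5 from 93302975 to 93307504, plus strand) is the cytoplasmic phosphatase of the set and selective for ERK. It was at 6.91, 6.66 and 8.70 FPKM in the sham samples and at 7.18, 4.26 and 9.50 FPKM in DAC 4, DAC 5 and DAC 6. The lowest and the highest sample both belonged to the DAC group. The difference was -0.13 (standard error 0.25, 95% interval -0.71 to 0.46, unadjusted P = 0.626 from limma) and became 0.15 without DAC 5.

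DUSP8 and DUSP10 prefer JNK and p38 over ERK. DUSP8 (ENSSSCG00000032911, chromosome 2 from 1008761 to 1022445, minus strand) was at 33.6, 38.1 and 24.9 FPKM in the sham samples and at 30.3, 17.6 and 29.98 FPKM in the DAC samples. DAC 5 was the lowest, and the other 2 DAC samples lay inside the sham range. The difference of DUSP8, -0.32 (standard error 0.24, 95% interval -0.89 to 0.26, unadjusted P = 0.231 from limma), was the most negative of the 9 tested brakes, and it was -0.072 without DAC 5. DUSP10 (ENSSSCG00000010831, chromosome 10 from 10866448 to 10905857, minus strand) was at 1.22, 0.971 and 0.719 FPKM in the sham samples and at 1.025, 1.19 and 1.29 FPKM in the DAC samples. The 3 DAC values of DUSP10 lay close to each other and overlapped with Sham 1, and the difference was 0.14 (standard error 0.14, 95% interval -0.18 to 0.46, unadjusted P = 0.324 from limma). It was 0.26 with a pseudocount of 0.1, 0.049 without Sham 3 and 0.23 without Sham 1. RefSeq also places a noncoding RNA over the DUSP10 locus, and how shared reads were assigned is not given in the sources used here.

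Sprouty proteins restrain the passage of receptor tyrosine kinase signals to RAS and RAF. SPRY2 (ENSSSCG00000009482, chromosome 11 from 52153704 to 52160497, minus strand) was at 10.8, 11.5 and 9.73 FPKM in the sham samples and at 10.8, 10.5 and 11.3 FPKM in the DAC samples. It was the least variable brake: its within-group SD on the log2(FPKM + 1) scale was 0.086, lower than in all but 11.2% of the tested genes. The difference of SPRY2 was 0.02 (standard error 0.10, unadjusted P = 0.822 from limma). Its 95% interval, -0.22 to 0.27 or a fold from 0.858 to 1.21 on this scale, was the narrowest of the 9.

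SPRY1 (ENSSSCG00000009083, chromosome 8 from 100450247 to 100863446, minus strand) was at 2.56, 3.64 and 2.88 FPKM in the sham samples and at 5.31, 2.27 and 4.36 FPKM in the DAC samples. DAC 4 and DAC 6 lay above all sham samples and DAC 5 below all of them. The difference was 0.26 (standard error 0.25, 95% interval -0.32 to 0.85, unadjusted P = 0.324 and adjusted P = 0.780 from limma). Without DAC 5 it was 0.54, and SPRY1 was then called (unadjusted P = 0.0143 from limma). SPRY1 has a long annotated span of 413200 bases, in which RefSeq also places a pseudogene.

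SPRY4 (ENSSSCG00000036322, chromosome 2 from 143875353 to 143892292, minus strand) was at 6.36, 3.74 and 3.39 FPKM in the sham samples and at 5.18, 3.74 and 7.58 FPKM in the DAC samples. As for DUSP1, DAC 6 was the highest and Sham 1 the second highest sample. SPRY4 had the widest within-group spread of the tested brakes, an SD of 0.416 on the log2(FPKM + 1) scale, and its difference was 0.24 (standard error 0.27, 95% interval -0.40 to 0.87, unadjusted P = 0.408 from limma). Without Sham 1 it was 0.47 and without DAC 6 it was 0.016, neither of them called. SPRED1 (ENSSSCG00000039393, chromosome 1 from 132902304 to 133016467, minus strand), which brings the RAS GTPase-activating protein neurofibromin to the membrane, was at 2.19, 3.27 and 3.21 FPKM in the sham samples and at 3.64, 2.75 and 3.30 FPKM in the DAC samples. Sham 1 was low, and the other 5 samples were mixed. The difference was 0.13 (standard error 0.15, 95% interval -0.23 to 0.49, unadjusted P = 0.431 from limma), and -0.0073 without Sham 1. In RefSeq the SPRED1 locus overlaps with another protein-coding gene.

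**Figure D2:**
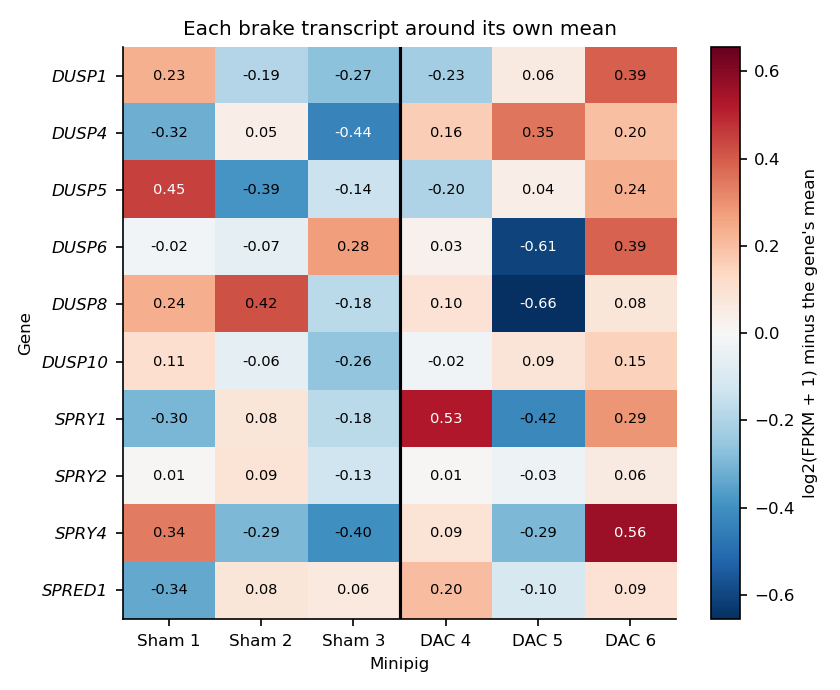
log2(FPKM + 1) of each brake gene (rows) in each minipig (columns) after subtracting the mean of the gene over the 6 samples, with sham samples left of the black line. DUSP4 is the only row with 3 positive DAC values above all its sham values, and DAC 5 is the darkest blue for DUSP6, DUSP8 and SPRY1.

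In DAC 6 every brake lay above its own mean over the 6 samples, by 0.061 to 0.56 on the log2(FPKM + 1) scale. The median of these centered values over the 10 genes was 0.22 in DAC 6, against 0.016 over all tested genes. In Sham 3 it was -0.18 against 0.014, and every brake but DUSP6 and SPRED1 lay below its mean. In the other samples the brakes lay on both sides of their means. DAC 6 was the highest sample for 4 of the 10 genes (DUSP1, DUSP6, DUSP10 and SPRY4) and the lowest for none, whereas it was the highest for 17.6% and the lowest for 12.4% of all tested genes. DAC 5 was the lowest for 3 genes (DUSP6, DUSP8 and SPRY1) and the highest for 1, DUSP4. Over all tested genes, DAC 5 was the lowest for 23.6%. Sham 3 was the lowest for 5 genes (DUSP1, DUSP4, DUSP10, SPRY2 and SPRY4), against 13.8% of the tested genes. These shares and medians are descriptions of 6 libraries and were not tested.

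No other tested DUSP gene of the lists used here was called higher. DUSP7, DUSP9, DUSP13, DUSP14 and DUSP21 were not listed under these names. DUSP29, under 1 FPKM in every sample and not tested, lay higher in all DAC samples than in all sham samples. Its means were 0.441 FPKM in the sham group and 0.701 FPKM in the DAC group. Of the other MAPK phosphatases of the family, DUSP2 and DUSP16 were tested and neither was called. DUSP16, which acts on JNK and p38, was at 9.72, 12.1 and 11.6 FPKM in the sham samples and at 14.5, 9.46 and 13.5 FPKM in the DAC samples. As in SPRY1, DAC 4 and DAC 6 were high and DAC 5 low, and the difference was 0.14 (95% interval -0.27 to 0.54, unadjusted P = 0.446 from limma). DUSP2 was near 1 FPKM in both groups, at 1.10 ± 0.280 and 1.17 ± 0.559 FPKM (SD, n = 3 each). Of 12 tested atypical DUSP genes, which lack the kinase-binding domain of the MAPK phosphatases, 2 were called lower and none higher. DUSP22 was at 36.8, 39.1 and 42.3 FPKM in the sham samples and at 31.3, 29.8 and 32.7 FPKM in the DAC samples, and the groups did not overlap. Its difference was -0.32 (standard error 0.10, unadjusted P = 0.0150 and adjusted P = 0.522 from limma), and it lost its call without Sham 3. DUSP28 was at 12.2 ± 0.798 FPKM in the sham group and 8.42 ± 1.99 FPKM in the DAC group (SD, n = 3 each), a difference of -0.51 that lost its call without Sham 3 and when gene variances were not moderated by limma.

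Other brakes on RAS and ERK were counted in a list of 22 genes, of which 8 were not listed by name and 13 were tested. None was called higher and 2 were called lower, with a median difference of -0.020. ERRFI1, a feedback inhibitor of the EGF receptor family, was at 9.33, 8.01 and 7.44 FPKM in the sham samples and at 6.75, 4.16 and 6.73 FPKM in the DAC samples, a difference of -0.45 (standard error 0.18, unadjusted P = 0.0440 from limma). LZTR1, an adaptor that directs RAS proteins to degradation, was at 6.53 ± 0.560 FPKM in the sham group and 5.28 ± 0.413 FPKM in the DAC group (SD, n = 3 each), a difference of -0.26. Both lay lower in all DAC samples than in all sham samples, and both calls were close to the threshold. The call of ERRFI1 was lost in 6 of 14 alternatives, among them those without Sham 1, Sham 2, Sham 3 or DAC 5. That of LZTR1 was lost in 9 of 14, among them those without Sham 1, Sham 3, DAC 4 or DAC 6.

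The RAS GTPase-activating proteins that SPRED1 and the Sprouty genes work with showed no called difference. NF1, which encodes neurofibromin, was at 10.4, 10.1 and 10.4 FPKM in the sham samples and at 11.0, 9.70 and 11.4 FPKM in the DAC samples, and its 95% interval on the log2(FPKM + 1) scale was -0.20 to 0.29. RASA1 was at 5.51 ± 0.869 and 5.84 ± 1.19 FPKM (SD, n = 3 each). SPRED2, a relative of SPRED1, was at 4.47, 8.14 and 2.99 FPKM in the sham samples and at 4.37, 4.05 and 2.96 FPKM in the DAC samples. Sham 2 stood apart, and the difference of SPRED2, -0.30, was 0.025 without it.

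Of the kinases that the brakes act on, MAPK3, MAPK8, MAPK9 and MAPK14 were likewise not called. MAPK3 (ERK1) was at 23.3, 24.9 and 29.9 FPKM in the sham samples and at 19.9, 23.1 and 22.5 FPKM in the DAC samples. The groups of MAPK3 did not overlap, yet the difference of -0.24 was not called (95% interval -0.54 to 0.063, unadjusted P = 0.104 from limma). For the JNK genes, MAPK8 had a difference of -0.099 and MAPK9 one of 0.13, and the p38 gene MAPK14 had one of -0.014, which turned positive under scaling, with unadjusted P of 0.395, 0.324 and 0.889 from limma. Between receptor and ERK, 2 of 35 tested genes of the RAS, RAF, MEK and ERK core were called lower and none higher. GRB2, the adaptor between receptors and the RAS activator SOS, was at 22.5, 21.2 and 23.6 FPKM in the sham samples and at 16.8, 15.8 and 16.0 FPKM in the DAC samples. The groups did not overlap. Its difference was -0.44 (standard error 0.097, 95% interval -0.67 to -0.22, unadjusted P = 0.00241 and adjusted P = 0.419 from limma), and it kept its call in all 14 alternatives. ARAF, a RAF kinase, was called lower with a difference of -0.26, a call that was lost in 7 of the 14 alternatives: under each of the 3 scalings and without Sham 1, Sham 3, DAC 4 or DAC 6. In the JNK and p38 core, 1 of 30 tested genes was called, MAP2K3, a kinase that activates p38, with 9.01 ± 0.526 FPKM in the sham group and 7.33 ± 0.262 FPKM in the DAC group (SD, n = 3 each). This call was lost in 5 of the alternatives, among them those without Sham 1, Sham 3, DAC 4 or DAC 5.

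**Figure D3:**
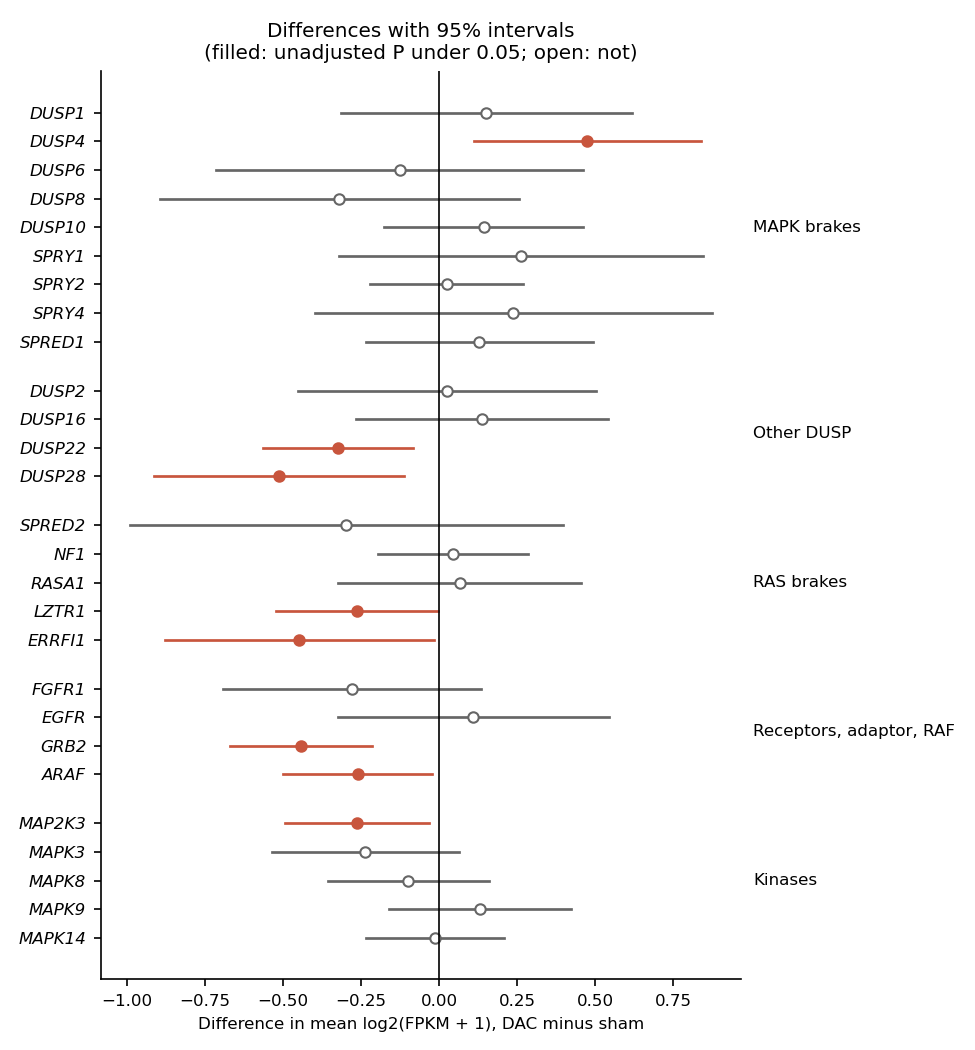
Difference in mean log2(FPKM + 1), DAC minus sham (horizontal axis), with its 95% interval from limma for the 9 tested brakes and for related phosphatases, RAS brakes, receptors and kinases. Filled red points had an unadjusted P under 0.05, and among the brakes this was DUSP4, at 0.48.

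Among the receptors and ligands that feed the pathway, 32 genes were tested, of which 2 were called higher and 1 lower, with a median difference of 0.077. FGFR1 and EGFR, receptors on which Sprouty proteins act, were not called. FGFR1 was at 33.1, 23.0 and 22.3 FPKM in the sham samples and at 22.5, 18.2 and 22.6 FPKM in the DAC samples. EGFR was at 3.04 ± 0.417 FPKM in the sham group and 3.42 ± 0.989 FPKM in the DAC group (SD, n = 3 each). FGF13, an intracellular member of the FGF family that binds sodium channels rather than FGF receptors, was at 6.25 ± 1.28 FPKM in the sham group and 10.3 ± 0.969 FPKM in the DAC group, a difference of 0.65 (unadjusted P = 0.00374 and adjusted P = 0.463 from limma). Of the VEGF receptors in the list, KDR, also an endothelial marker, was called higher, at 12.5 ± 3.68 and 19.4 ± 4.98 FPKM, and FLT1 was called lower, at 32.4 ± 4.48 and 23.5 ± 2.49 FPKM (SD, n = 3 each). The KDR call was lost in 5 of 14 alternatives, among them those without Sham 1, Sham 3, DAC 4 or DAC 6. That of FLT1 was lost without Sham 2 or Sham 3.

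Transcripts known to follow ERK activity, many of which share their induction with the brakes, did not go one way either. Of 25 tested, 3 were called higher and 2 lower, and the median difference was -0.11. FOSL1, JUN, EGR4, IER2 and LIF, also chosen for this list, were not listed under these names. ETV1, an ETS transcription factor, was at 1.22, 3.22 and 1.93 FPKM in the sham samples and at 5.21, 3.45 and 5.28 FPKM in the DAC samples, with no overlap and a difference of 0.89 (unadjusted P = 0.00958 from limma). EPHA4, an ephrin receptor, and ZFP36L1, an RNA-binding protein that promotes mRNA decay, were also called higher, with differences of 0.59 and 0.58. The EPHA4 call was lost without DAC 4 or DAC 5, the ZFP36L1 call without Sham 1 or DAC 4, and both when gene variances were not moderated. FOSL2, a subunit of the AP-1 transcription factor, was called lower, at 42.7 ± 5.21 FPKM in the sham group and 26.8 ± 3.21 FPKM in the DAC group (SD, n = 3 each), and KLF10 was called lower with a difference of -0.32, a call lost in 10 of 14 alternatives, including the removal of any sample but Sham 1. EGR1 and FOS, immediate early genes picked after their values were seen, were highest in a sham animal. EGR1 was at 59.2 FPKM in Sham 1 and between 11.1 and 27.2 FPKM in the other 5 samples, and FOS was at 4.01 FPKM in Sham 1 and between 0.360 and 1.10 FPKM elsewhere. Sham 1 was also the highest sample for DUSP5 and the second highest for DUSP1 and SPRY4. It was the lowest, however, for the brake SPRED1 and for ETV1, ETV4, ETV5, EPHA4 and ZFP36L1 of the ERK-linked list. The part of this animal in the result was measured by leaving it out: the difference of DUSP1 was then 0.31, that of SPRY4 0.47 and that of DUSP5 0.29, and neither DUSP1 nor SPRY4 was called. PHLDA1, another transcript of this list, had the pattern of SPRY1, with 18.7 and 21.3 FPKM in DAC 4 and DAC 6, 3.73 FPKM in DAC 5 and between 4.19 and 6.75 FPKM in the sham samples, and it too was picked after its values were seen.

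**Figure D4:**
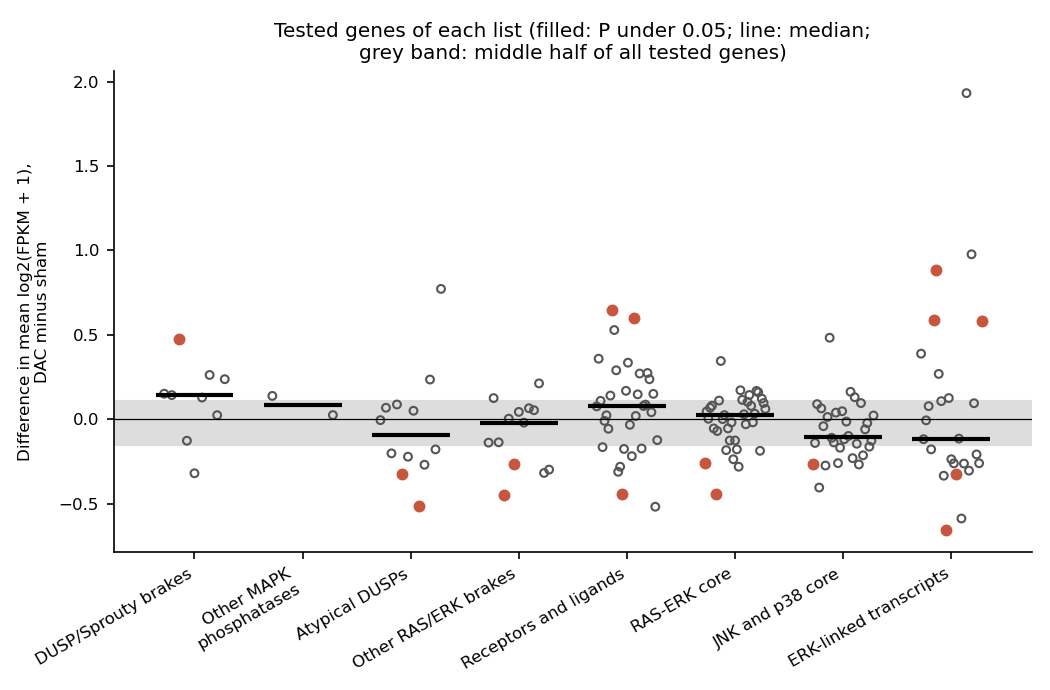
Difference in mean log2(FPKM + 1), DAC minus sham (vertical axis), for each tested gene of the 8 MAPK lists, with a black line at the median of a list, filled red points for an unadjusted P under 0.05 and a grey band from the lower to the upper quartile of all tested genes (-0.15 to 0.11). The brakes have a median of 0.14 and a single called gene, and the highest open point belongs to MCL1, which is listed at 0 FPKM in 3 samples.

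The cell type markers whose summed level separated the groups were those of fibroblasts. Of 8 tested fibroblast markers, 5 were called higher and none lower, led by COL1A2, COL1A1 and POSTN with differences of 0.59, 0.81 and 0.71. DCN, PDGFRA and TCF21 were not called, with differences of -0.012, 0.24 and -0.022 and unadjusted P of 0.966, 0.102 and 0.91 from limma. No fibroblast marker was at 0 in any sample. The summed FPKM of the 8 was 482 to 555 in the sham samples and 688 to 780 in the DAC samples. These sums separate the groups as DUSP4 does, and their part in the DUSP4 difference was not tested. The summed FPKM of 8 endothelial markers, 144 to 199 in the sham samples and 128 to 191 in the DAC samples, overlapped, as did that of 11 cardiomyocyte markers, 17280 to 18144 against 16480 to 19511. MYH6, TTN and PLN, also chosen as cardiomyocyte markers, were not listed under these names and are not part of this sum. Of the endothelial markers VWF was called lower and KDR, described above, was called higher. Of the cardiomyocyte markers RYR2 was called lower. Among smooth muscle and pericyte markers, 1 of 8 tested, CNN1, was called higher, and among leukocyte markers 1 of 5 tested, CD163, was called lower. The CNN1 call was lost in 4 of 14 alternatives, without Sham 1, Sham 2 or DAC 5 and when gene variances were not moderated. That of RYR2 was lost in 7 of 14, among them those without Sham 1, Sham 3, DAC 5 or DAC 6. The single tested red blood cell marker, HBB, and the single tested adipocyte marker, FABP4, were not called. DAC 5 had the lowest summed FPKM of cardiomyocyte and of endothelial markers and the highest mitochondrial share, and it was also the lowest sample for DUSP6, DUSP8 and SPRY1. The part of this sample in those 3 genes is given by the values without it, above.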

How the data were processed

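RNA of ventricular tissue from 3 sham and 3 DAC minipigs was sequenced from both ends on the Illumina HiSeq platform after library preparation with a NEBNext Ultra kit. The submitters' processing notes name HISAT2 and the susScr11 build; the program that made the FPKM, the annotation release and the use of strand are not given in the sources used here. The authors deposited FPKM per gene and sample, scaled by length and by mapped fragments. No counts were recovered from these values, so no interval for read depth is given.

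All 13288 listed genes were read, with 520 symbols filled from a table of gene identifiers, and groups came from the sample labels. Values were taken as log2(FPKM + 1), genes at 1 FPKM or more in at least 3 samples were kept, and limma 3.58.1 in R 4.3.3 was fitted to all 11029 with a trended, moderated variance, called at an unadjusted P under 0.05, with Benjamini-Hochberg adjustment beside it. Single values were also compared by an exact two-sided permutation test over the 6 samples, whose smallest P is 0.1. The script was tested on simulated data. Figures were drawn with matplotlib 3.10.9.

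The 10 brakes and all lists were chosen with earlier results of these data known. Named beside the brakes were, from each list, up to 3 genes per direction with the smallest P among those called (or the gene with the smallest P where none was), the kinases and partners MAPK3, MAPK8, MAPK9, MAPK14, RASA1, NF1 and SPRED2, the phosphatases DUSP2 and DUSP16, and the receptors FGFR1 and EGFR. A further gene of this rule is not reported here. The 14 alternatives changed the pseudocount, the filter, the scaling, the variance or the sample weights, or left out 1 sample. The fibroblast markers that were not called, DCN, PDGFRA and TCF21, were also named but not followed gene by gene in these alternatives.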

Additional observations from a re-analysis of the deposited data

How the results depend on the processing

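No paired analysis was made, because the study assigned different minipigs at random to the groups and compared them unpaired. Leaving out 1 sample at a time moved the difference of DUSP4 from 0.37 to 0.62, of DUSP1 from -0.0075 to 0.31, of DUSP6 from -0.35 to 0.15, of SPRY1 from 0.065 to 0.54, of SPRY2 from -0.036 to 0.076 and of SPRED1 from -0.0073 to 0.21. The causes of these shifts were not tested. DUSP4 was the brake called in the full set, and 0 to 1 brakes were called higher in these repeats, with 0 lower. The count was 0 without Sham 1 or Sham 3, and without DAC 5 the called brake was SPRY1 in place of DUSP4. At a filter of 5 FPKM, where DUSP4 was not tested, 0 brakes were called higher. DUSP8, DUSP10 and SPRY4 kept their sign and stayed uncalled in every alternative in which they were tested, and without 1 sample they ranged from -0.49 to -0.072, from 0.049 to 0.23 and from 0.016 to 0.47. The untested difference of DUSP5 ranged from -0.13 to 0.29.

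Of all genes, 359 to 674 were called lower without 1 sample, and 0 to 1 passed the adjusted threshold. At 5 FPKM, 165 genes were called higher. With median scaling the split was 429 higher and 479 lower.

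Leaving out 1 sample moved the median difference of the atypical phosphatases from -0.17 to -0.019, of the other RAS and ERK brakes from -0.099 to 0.030, of receptors and ligands from -0.0058 to 0.15, of the RAS, RAF, MEK and ERK core from -0.035 to 0.026, of the JNK and p38 core from -0.12 to -0.051, of the ERK-linked transcripts from -0.17 to 0.12, of fibroblast markers from 0.47 to 0.55 and of all tested genes from -0.03 to -0.0066. At 5 FPKM, with fewer genes tested, the medians were -0.22 for atypical phosphatases, -0.14 for other brakes, -0.019 for the RAS to ERK core, 0.46 for fibroblast markers and -0.037 for all genes, and with no filter the atypical phosphatases had 0.023. With quantile normalization the medians were -0.10 for cardiomyocyte markers, 0.62 for fibroblast markers and 0.0047 for all genes, and with median scaling 0.0043 for all genes. Without mitochondrially encoded genes they were 0.053 for the RAS to ERK core and 0.020 for all genes.

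Small differences changed sign. MAPK14 was at 0.0079, 0.0098 and 0.025 with median scaling, quantile normalization and mitochondrial genes left out. HBB was at 0.16 with sample weights. Without 1 sample, DUSP2 ranged from -0.18 to 0.13, EGFR from -0.036 to 0.29, HBB from -0.73 to 0.52, MAPK14 from -0.029 to 0.012, NF1 from -0.00017 to 0.11, RASA1 from -0.063 to 0.18 and SPRED2 from -0.57 to 0.025. Of 482 repeats of the 35 other named genes, 403 kept direction and call, 64 lost the call and 15 changed sign. With unknown depth, the counting error of low transcripts such as DUSP4, DUSP5 and DUSP10 could not be estimated, and transcript levels say nothing of phosphatase activity.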
